A study of Mus musculus with 9 samples.

Results

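The genes described here are the metallothioneins Mt1, Mt2 and Mt3, the zinc exporter gene Slc30a1, and Mtf1, the gene of the transcription factor that senses zinc. These 5 genes of the 26683 in the count table were chosen by name after their levels in the 9 retina libraries had been looked at, so their own levels and differences between groups are a description and carry no p-value. All 5 passed the filter on low counts, which kept 17362 genes. Each of the 3 groups holds 3 libraries of mouse retina collected at postnatal day 17. Normoxic retinas came from normoxic mice, and no injection is given for them. PBS retinas are from the oxygen-induced retinopathy (OIR) model, in which a spell of high oxygen early in life halts retinal vessel growth and abnormal vessels sprout once the pups are back in normal air. These eyes were given PBS (phosphate-buffered saline) in the vitreous at postnatal day 15. Gel retinas came from OIR mice that received a PCC1/PHCF hydrogel by the same route on the same day. The drug in the gel, PCC1, is procyanidin C1, a polyphenol of plants, by the series title. No group received the gel without PCC1, so drug and carrier cannot be told apart, and neither can OIR and the injection in comparisons with Normoxic. Strain and sex are not given, and nothing says that the libraries of a group are separate animals, so the spread within a group may be technical.

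Metallothioneins are very small proteins rich in cysteine that bind zinc and copper, buffer free zinc and react with oxidants. MTF1 binds zinc through its zinc fingers, enters the nucleus and activates genes that carry metal response elements (MREs), above all Mt1, Mt2 and Slc30a1. The SLC30A1 protein (ZnT1) carries zinc out of the cell across the plasma membrane. Mt1 and Mt2 are also known to respond to glucocorticoids, cytokines that act through STAT3, and oxidative stress, and in the retina they are found in glia and in the pigment epithelium. Mt3, the form typical of the nervous system, responds weakly to metals.

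The promoters of the 3 metallothionein genes and of Slc30a1 are shown because MREs are the sites through which MTF1 is known to act. The stretches run from 250 bases before the annotated start of the gene to 30 bases after it, 5′ to 3′ on the + strand, from RefSeq on build GRCm38.p6, and were matched by gene number, since the counts themselves carry no coordinates. All 5 genes had an entry. Capitals mark each MRE core, searched as TGCACNC and TGCGCNC on both strands.
Mt1, chr8:94178839-94179118: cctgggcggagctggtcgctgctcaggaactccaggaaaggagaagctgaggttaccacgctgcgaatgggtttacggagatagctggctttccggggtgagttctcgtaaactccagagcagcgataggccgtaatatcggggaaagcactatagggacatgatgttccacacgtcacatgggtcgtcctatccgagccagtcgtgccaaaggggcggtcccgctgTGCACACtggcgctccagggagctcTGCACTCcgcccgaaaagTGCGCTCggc
Mt2, chr8:94172368-94172647: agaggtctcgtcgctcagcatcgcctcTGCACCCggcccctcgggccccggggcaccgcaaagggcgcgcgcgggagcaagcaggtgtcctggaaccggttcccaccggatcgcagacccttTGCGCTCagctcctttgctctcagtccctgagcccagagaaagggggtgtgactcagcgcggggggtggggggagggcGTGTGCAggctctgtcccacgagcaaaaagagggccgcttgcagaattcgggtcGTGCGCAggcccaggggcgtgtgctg
Mt3, chr8:94152357-94152636: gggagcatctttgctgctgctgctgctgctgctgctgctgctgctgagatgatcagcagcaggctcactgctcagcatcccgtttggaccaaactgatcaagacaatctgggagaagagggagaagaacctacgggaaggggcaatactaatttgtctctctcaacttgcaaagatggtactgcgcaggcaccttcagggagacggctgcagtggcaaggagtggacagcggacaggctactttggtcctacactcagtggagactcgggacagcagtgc
Slc30a1, chr1:191906531-191906810: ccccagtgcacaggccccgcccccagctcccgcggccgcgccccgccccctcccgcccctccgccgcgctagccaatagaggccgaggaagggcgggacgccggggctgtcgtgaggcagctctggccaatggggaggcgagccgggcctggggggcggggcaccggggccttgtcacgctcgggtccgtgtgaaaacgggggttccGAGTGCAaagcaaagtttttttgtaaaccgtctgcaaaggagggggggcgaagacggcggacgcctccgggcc

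The stretch of Mt2 held 4 matches to the MRE core, that of Mt1 held 3 and that of Slc30a1 held 1. Neither Mt3 nor Mtf1 (chr4:124802299-124802578) had one. Of 32851 promoter stretches of this length, 24.1% held at least 1 match, 1.73% at least 3 and 0.405% at least 4. In Mt1 the match TGCACAC began 23 bases before the annotated start, and TGCACTC and TGCGCTC lay at bases 3 to 9 and 21 to 27 from it. In Mt2 the matches began 223, 128 and 50 bases before the start and at base 5 after it. The core of the antioxidant response element, searched as TGACNNNGC on both strands, matched once in Mt2 (TGACTCAGC, from 79 bases before the start) and once in Slc30a1, against 11.5% of all stretches. The STAT site TTCNNNGAA (7.83% of all stretches) and the E-box CACGTG (6.79%), which is read by USF factors, matched in none of the 5 genes within this window. None of the 4 motifs overlapped another in these stretches. A match describes letters in this window and is not a measured binding site. Each gene was searched around its annotated start alone. Sites beyond the window or near other starts were not searched, so a missing match or a lower count may reflect the window. The 3 metallothionein genes lie in a row on chromosome 8, in the order Mt3, Mt2, Mt1, with Mt4 next to Mt3. The promoter stretch of Mt4 held 1 match to the MRE core. The count table has no row under the name Mt4, so its expression could not be read.

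The total counts of the 9 libraries ran from 29324142 to 35663470, and the lowest count of any of the 5 genes in any library was 378. One PBS library, PBS 3, stood apart in how counts followed gene length. Its 305 genes of up to 600 bases had a median log2 CPM of 0.81 above the Normoxic mean, against 0.01 in PBS 1, 0.06 in PBS 2, -0.11 in Gel 1, 0.31 in Gel 2 and 0.22 in Gel 3, while the median over all genes lay at 0 to 0.01 in each injected library. CPM are counts scaled to 1000000 per library. Mt2 and Mt3, with 556 and 538 bases in the authors' FPKM, are among the shortest genes measured (1.37% and 1.17% of kept genes are shorter), Mt1 has 1258 bases (9.6% shorter), and Slc30a1 and Mtf1, with 5360 and 7631 bases, are longer than the median of 3649. Values with this length trend removed, or without PBS 3, are therefore given for Mt1, Mt2 and Mt3, and for the other genes where the sign turns.

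Mt1 (Entrez 17748) was higher in OIR retinas of both kinds than in Normoxic retinas. It had 48.0, 43.7 and 36.9 CPM in Normoxic 1 to 3, 244, 141 and 182 CPM in PBS 1 to 3, and 99.0, 122 and 144 CPM in Gel 1 to 3. Every injected library lay above every Normoxic library, PBS 1 was the highest, and Gel 3 overlapped the PBS range. The means were 42.9 ± 5.61, 189 ± 51.9 and 122 ± 22.4 CPM (SD, n = 3), and the log2 fold change was 2.15 ± 0.21 (SE) in PBS versus Normoxic, 1.51 ± 0.21 in Gel versus Normoxic and -0.64 ± 0.20 in Gel versus PBS. The 2 comparisons with Normoxic share those libraries, as do the 2 with PBS.

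Mt2 (Entrez 17750) was also higher in both OIR groups, by a larger fold than Mt1. It had 14.6, 12.2 and 12.3 CPM in Normoxic 1 to 3, 161, 86.0 and 132 CPM in PBS 1 to 3, and 62.8, 71.4 and 89.8 CPM in Gel 1 to 3. Again no injected library overlapped Normoxic, PBS 1 was highest, and Gel 3 lay just above PBS 2, the lowest PBS library. The means were 13 ± 1.36, 126 ± 37.6 and 74.6 ± 13.8 CPM (SD, n = 3), a 9.79-fold difference between PBS and Normoxic and a 5.77-fold one between Gel and Normoxic, or log2 fold changes of 3.29 ± 0.23 and 2.53 ± 0.23 (SE). Gel stood at 0.589 of PBS (log2 fold change -0.76 ± 0.21). By size of log2 fold change Mt2 ranked 63rd of all kept genes in PBS versus Normoxic and 68th in Gel versus Normoxic, and Mt1 ranked 236th and 308th.

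In both genes PBS 1 held the highest value. Without PBS 1 the Gel versus PBS log2 fold change was -0.42 ± 0.19 (SE) for Mt1 and -0.56 ± 0.21 for Mt2, and without PBS 3 it was -0.64 ± 0.21 and -0.70 ± 0.21. With the length trend removed the values were -0.52 ± 0.19 and -0.59 ± 0.22. The mean in Gel stayed the lower one in each of these. The PBS mean was 1.56 times the Gel mean for Mt1 and 1.70 times for Mt2 in the fit, while the highest PBS library held 1.73 times the Mt1 and 1.87 times the Mt2 of the lowest PBS library.

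Mt3 (Entrez 17751) stood nearer to its Normoxic level in the injected libraries than Mt1 and Mt2 did. It had 19.5, 19.5 and 17.0 CPM in Normoxic 1 to 3, 21.1, 23.5 and 35.2 CPM in PBS 1 to 3, and 20.3, 27.8 and 23.5 CPM in Gel 1 to 3. The injected libraries all lay above the Normoxic ones, Gel 1 by the least, and PBS 3 was the highest. The log2 fold change was 0.53 ± 0.20 (SE) in PBS versus Normoxic, 0.37 ± 0.20 in Gel versus Normoxic and -0.16 ± 0.20 in Gel versus PBS. With the length trend removed the PBS versus Normoxic value was 0.21 ± 0.11, and without PBS 3 it was 0.24 ± 0.14. The Gel versus PBS value turned to 0.07 ± 0.11 and 0.13 ± 0.14 in those settings. Gel versus Normoxic was 0.28 ± 0.11 and 0.37 ± 0.13 there. With the trend removed, the injected libraries still lay 0.15 to 0.41 above the Normoxic mean on the log2 scale. Normoxic libraries ran from -0.10 to 0.07. In PBS 3 Mt3 stood 0.98 above the Normoxic mean on the log2 scale as counted and 0.29 above it once the length trend was removed, where the median short gene of that library stood at 0.81.

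**Figure D1:**
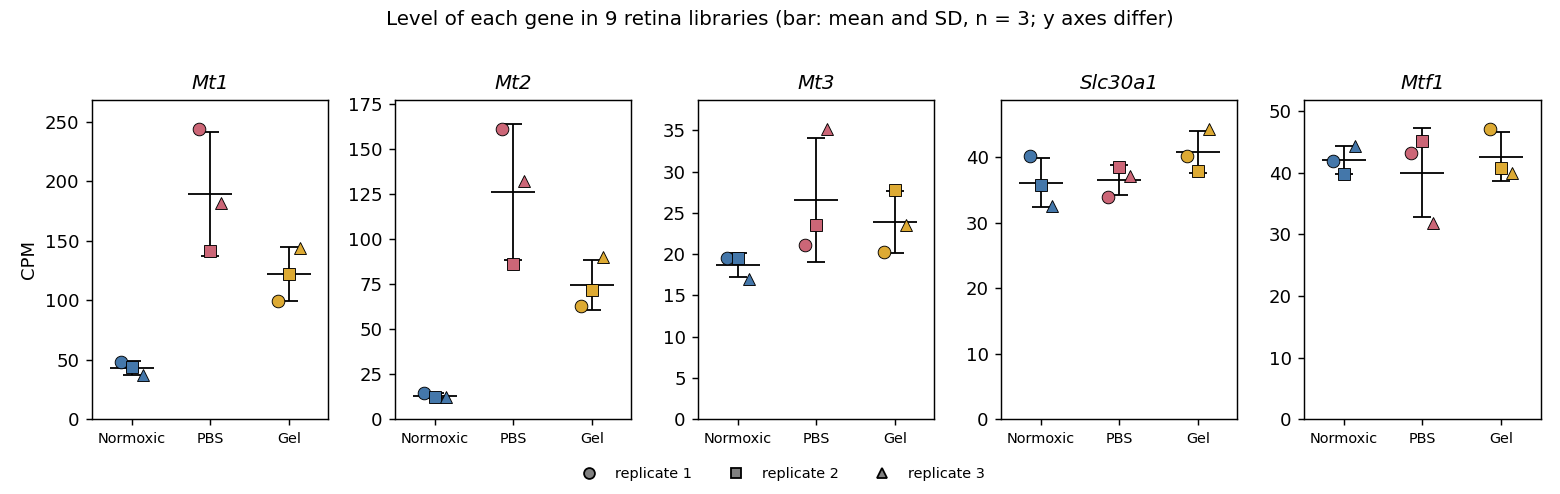
CPM (y axis, from 0, a scale of its own in each panel) of the 5 genes in Normoxic, PBS and Gel libraries, with 1 point per library shaped by replicate and a bar for the mean and SD of 3. Mt1 and Mt2 lie above every Normoxic library in all 6 injected ones, and Slc30a1 and Mtf1 overlap between all groups.

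Slc30a1 (Entrez 22782), the exporter that MTF1 is known to activate together with Mt1 and Mt2, did not follow them. It had 40.1, 35.8 and 32.5 CPM in Normoxic 1 to 3, 33.9, 38.4 and 37.1 CPM in PBS 1 to 3, and 40.2, 37.9 and 44.3 CPM in Gel 1 to 3. The 3 groups overlapped, with the highest value in Gel 3 and the lowest in Normoxic 3. The log2 fold change was 0.03 ± 0.11 (SE) in PBS versus Normoxic, 0.16 ± 0.11 in Gel against PBS, and 0.18 ± 0.11 in Gel against Normoxic. Without PBS 3 the PBS versus Normoxic value of Slc30a1 was -0.02 ± 0.11.

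Mtf1 (Entrez 17764), the sensor itself, overlapped between all groups. It had 41.9, 39.8 and 44.3 CPM in Normoxic 1 to 3, 43.1, 45.1 and 31.8 CPM in PBS 1 to 3, and 47.1, 40.8 and 39.9 CPM in Gel 1 to 3. PBS 3 was the lowest and Gel 1 the highest. The log2 fold change was -0.07 ± 0.13 (SE) in PBS versus Normoxic, 0.10 ± 0.13 in Gel against PBS and 0.03 ± 0.13 in Gel against Normoxic, and without PBS 3 it was 0.05 ± 0.11 in PBS versus Normoxic and -0.02 ± 0.11 in Gel versus PBS. Mtf1 is the longest of the 5 genes, and its value in PBS 3 relative to Normoxic moved from -0.34 to -0.08 on the log2 scale when the length trend was removed. The counts show RNA, and the movement of the MTF1 protein into the nucleus was not measured.

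Of the 5 genes, 3 had PBS values that did not overlap Normoxic (Mt1, Mt2, Mt3), as did 29% of all kept genes. In Gel versus Normoxic the count was again 3, with 23.9% of all kept genes, and in Gel versus PBS it was 0, with 7.89%. These contrasts were used to choose the genes, so the counts are not read further.

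**Figure D2:**
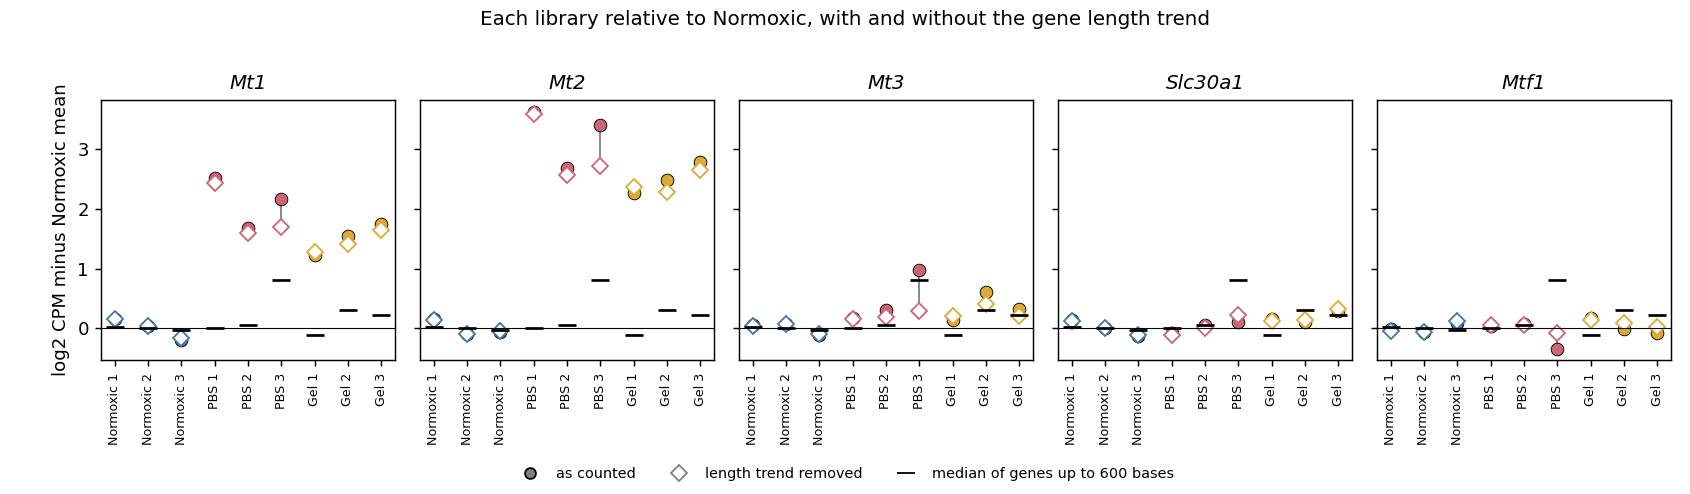
log2 CPM of each gene minus its Normoxic mean (y axis) in each library (x axis), as counted (filled circles) and with the gene length trend removed (open diamonds), beside the median of the 305 genes of up to 600 bases (black dashes). PBS 3 moves most, for Mt3 from 0.98 to 0.29, while Mt1 and Mt2 stay at least 1.27 and 2.29 above Normoxic in each injected library after removal.

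Compared per length, the mix of metallothionein RNA differed between Normoxic and OIR retinas. FPKM are counts per kilobase of gene length and per 1000000 counts. In Normoxic retinas Mt3 (34.7 ± 2.72 FPKM, SD, n = 3) and Mt1 (34.1 ± 4.46 FPKM) overlapped, Mt2 followed at 23.4 ± 2.44 FPKM, and Slc30a1 (6.74 ± 0.705 FPKM) and Mtf1 (5.50 ± 0.294 FPKM) were lowest. In PBS the order was Mt2 (227 ± 67.6 FPKM), Mt1 (150 ± 41.3 FPKM) and Mt3 (49.5 ± 14 FPKM). In Gel it was Mt2 (134 ± 24.8 FPKM), Mt1 (96.6 ± 17.8 FPKM) and Mt3 (44.3 ± 7.01 FPKM). The FPKM ranges of Mt1 and Mt2 overlapped across PBS and across Gel libraries. In FPKM Mt2 stood above Mt1 in each of those 6 libraries and below it in each of the 3 Normoxic ones. That order rests on the 1258 bases given to Mt1. In CPM Mt1 stood above Mt2 in all 9 libraries, with ratios of 1.38 to 3.59.

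The summed FPKM of Mt1, Mt2 and Mt3 was 101, 92.8 and 83.1 in Normoxic 1 to 3, 522, 310 and 448 in PBS 1 to 3, and 229, 277 and 319 in Gel 1 to 3. Mt1 made up 35.3% to 37.9% of that sum in Normoxic, 32.4% to 37.1% in PBS and 34.3% to 35.8% in Gel, so its share hardly differed. Mt2 made up 23.5% to 26.7% in Normoxic, 49.9% to 55.4% in PBS and 46.4% to 50.5% in Gel. Mt3 made up the rest, 36.0% to 39.1% in Normoxic, 7.52% to 14.6% in PBS and 13.7% to 18.7% in Gel. Both OIR groups lay outside the Normoxic range for Mt2 and for Mt3.

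The ratio of Mt1 to Mt2 FPKM is taken within a library and does not depend on its depth. It was 1.45, 1.59 and 1.32 in Normoxic 1 to 3, 0.671, 0.722 and 0.611 in PBS 1 to 3, and 0.696, 0.755 and 0.708 in Gel 1 to 3. The total ran from 310 to 522 between PBS libraries, while the ratio stayed in a narrow band in all 6 injected libraries, with PBS and Gel overlapping. On the log2 scale Mt2 had moved from Normoxic by 0.94 to 1.24 more than Mt1 in the 6 injected libraries, and by 0.89 to 1.15 more with the length trend removed. The order of Mt1 and Mt2 within a group rests on the length given to each gene, and the coding transcripts of Mt1 in GENCODE release M21 run from 549 to 1085 bases, but the shift of the ratio between groups does not rest on it as long as the same transcripts are made. None of the 1036 windows of 50 bases in the longest coding transcript of Mt1, nor of the 462 in that of Mt2, was found in a transcript of another gene, so reads of that length can be told apart. The sources used here do not give the read length.

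**Figure D3:**
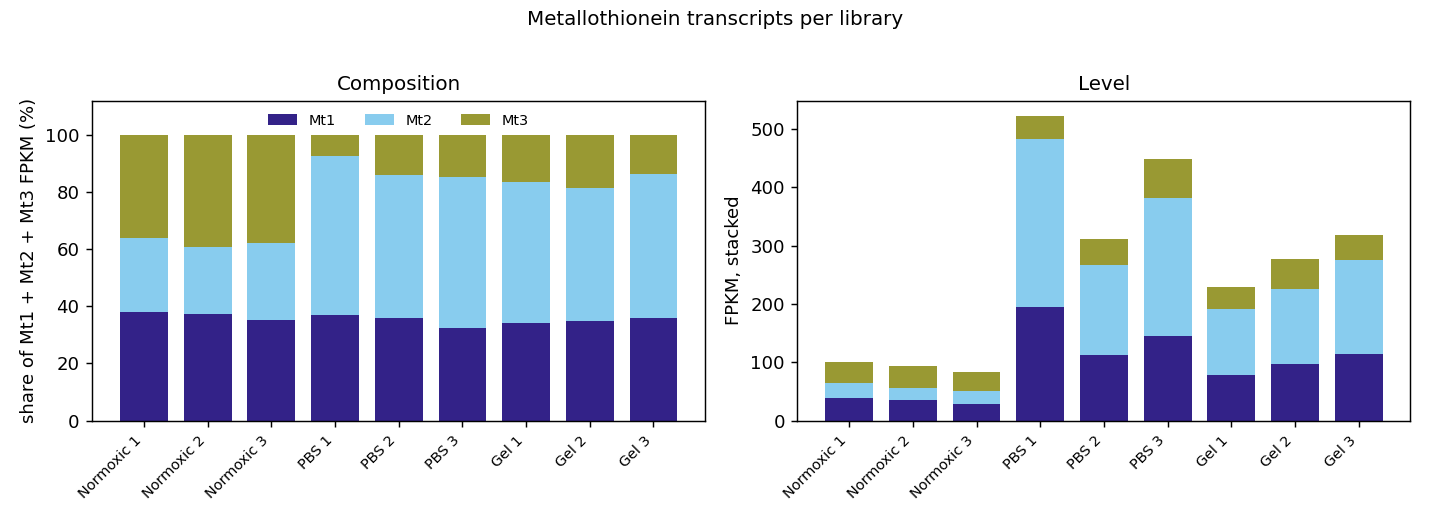
Left, share (%) of Mt1, Mt2 and Mt3 in their summed FPKM, and right, the FPKM stacked, for each of the 9 libraries (x axis). The Mt1 share stays between 32.4% and 37.9% throughout, while Mt2 takes 23.5% to 26.7% in Normoxic and 46.4% to 55.4% in injected libraries.

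Mt1 and Mt2 varied together also within groups. Over the 9 libraries the Pearson correlation of their log2 CPM was 0.99, and that of their deviations from the group means was 0.94, where PBS 1 and Gel 3 were high and PBS 2 and Gel 1 low for both genes. These libraries share depth and length trend with every gene. With the length trend removed the correlation over the 9 libraries was 0.99, a value that includes the differences between groups. The correlation of deviations from group means was not computed with the length trend removed. Mt3 correlated with Mt1 at 0.66 over the 9 libraries and at 0.15 in deviations from group means. Mt3 and Mtf1, a short and a long gene, had a correlation of -0.75, and of 0 with the length trend removed. Slc30a1 correlated with Mt1 at 0.26 and with Mt2 at 0.30.

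Among 13499 other genes averaging 1 CPM or more and not named as gene models, those whose log2 CPM followed a member most closely over the 9 libraries were named, at 5 per member. For Mt1 they were Pros1, which encodes the anticoagulant protein S (Pearson r 0.99), Cmtm3 (0.99), the protease inhibitor gene Serpina3n (0.98), the adhesion receptor gene Adgrg6 (0.98) and Prr5l (0.98). In deviations from group means Cmtm3 and Pros1 kept an r of 0.96 and 0.90 with Mt1. For Mt2 they were the MHC class I genes H2-K1 (0.99) and H2-D1 (0.98), the tubulin gene Tubb6, the hypoxia-induced Ndufa4l2 and Prr5l (0.98 each). For Mt3 they were Sptssa, a subunit gene of the enzyme that starts sphingolipid synthesis, the ribosomal protein genes Rps15a and Rps28, Fcf1 and Tfpt, all at 0.98, of which Rps15a had an r of 0.71 and Rps28 of 0.85 with the length trend removed. For Slc30a1 they were the Polycomb gene Bmi1 (0.97), Zfp551, Ggnbp2, Cpsf2 and Ggt1 (0.93 to 0.95). For Mtf1 they were 5 genes of 10450 bases or more, the cytoskeletal linker gene Macf1 (0.99), Gatad2b, Cnnm2, Birc6 and Map1b (0.98 each). All these correlations rest on the same 9 libraries. In deviations from group means the genes named for Mt3, Slc30a1 and Mtf1 had an r of 0.93 or more with that member. Those named for Mt1 and Mt2 had an r of 0.60 to 0.96. The genes were picked as the closest of 13499 in these same libraries. High values were therefore largely set by the choice, above all where a member differed little between groups, and they are no separate evidence of a link. Other measures of likeness shared at most 2 of these 5 genes for any member.

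The other genes of zinc handling were read from 2 lists, 9 zinc exporters of the SLC30 family besides Slc30a1 and 14 zinc importers of the SLC39 family, of which 21 were kept. In PBS versus Normoxic the edgeR quasi-likelihood test called 1 of the 21, higher, where it called 6.34% of all kept genes (4.31% higher and 2.03% lower). Higher genes were 67.9% of all calls there, and 55.3% with the length trend removed. The median log2 fold change of the 21 was 0.11, beside 0.01 for all kept genes, and 15 lay above 0. An unadjusted edgeR p under 0.05 was found there for 4 of the 21 and for 3711 of the 17362 kept genes. In Gel versus PBS edgeR called 0 of the 21, 0 of which had an unadjusted p under 0.05, and none of all kept genes (0%, with 961 at an unadjusted p under 0.05, 62 called by DESeq2 and 0 by limma-voom). In Gel versus Normoxic it called 0 of the 21 (2 at an unadjusted p under 0.05, 1 called by DESeq2 and 0 by limma-voom), where it called 1.41% of all kept genes, 1.12% higher and 0.288% lower. Among all kept genes 2298 had an unadjusted p under 0.05 in that comparison.

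The zinc importer that rose in PBS was Slc39a1, whose product ZIP1 brings zinc in across the plasma membrane. It had 37.5, 38.8 and 36.4 CPM in Normoxic 1 to 3, 58.9, 49.2 and 55.7 CPM in PBS 1 to 3, and 42.0, 50.7 and 45.5 CPM in Gel 1 to 3. PBS lay above Normoxic without overlap, and Gel lay above Normoxic and overlapped PBS, with a log2 fold change of 0.55 ± 0.12 (SE) in PBS versus Normoxic (edgeR adjusted p = 0.0185). In Gel versus PBS it was -0.24 ± 0.12 (edgeR adjusted p = 0.932). The PBS versus Normoxic call was lost without any 1 of the Normoxic libraries or PBS 1 (edgeR adjusted p up to 0.0853).

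Slc39a8, the gene of the zinc and manganese importer ZIP8, had 3.07, 2.00 and 2.61 CPM in Normoxic 1 to 3, 2.99, 5.28 and 7.09 CPM in PBS 1 to 3, and 4.95, 5.94 and 5.67 CPM in Gel 1 to 3. PBS 1, where Mt1 and Mt2 were highest, was the injected library within the Normoxic range of Slc39a8. Its log2 fold change of 1.02 ± 0.30 (SE) in PBS versus Normoxic did not pass edgeR (adjusted p = 0.0756, range 0.0148 to 0.254 over the alternatives), nor did 1.12 ± 0.30 in Gel versus Normoxic (adjusted p = 0.112, range 0.0118 to 0.363). Slc39a4 (1.10 ± 0.43) and Slc39a11 (0.37 ± 0.16) had unadjusted edgeR p of 0.0266 and 0.0421 in PBS versus Normoxic and adjusted p of 0.169 and 0.214.

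Among exporters Slc30a1 had rank 4 of 10 per length, at 7.05 ± 0.660 FPKM over all 9 libraries (SD). Slc30a9 (41.4 ± 3.33 FPKM) was highest, then Slc30a5 (13.9 ± 1.28 FPKM) and Slc30a4 (8.05 ± 0.712 FPKM), whose range overlapped that of Slc30a1, and Slc30a6 (6.27 ± 0.412 FPKM) followed, also overlapping. The smallest p among exporters in PBS versus Normoxic was that of Slc30a7, with a log2 fold change of 0.21 ± 0.14 (SE, edgeR adjusted p = 0.393, 0.0444 with the length trend removed). Slc30a10, a manganese exporter, had -0.25 ± 0.23 (edgeR adjusted p = 0.546). Slc30a8, at 0 to 4 counts in each library, and Slc39a5, at 0 to 10, were too low for the test.

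**Figure D4:**
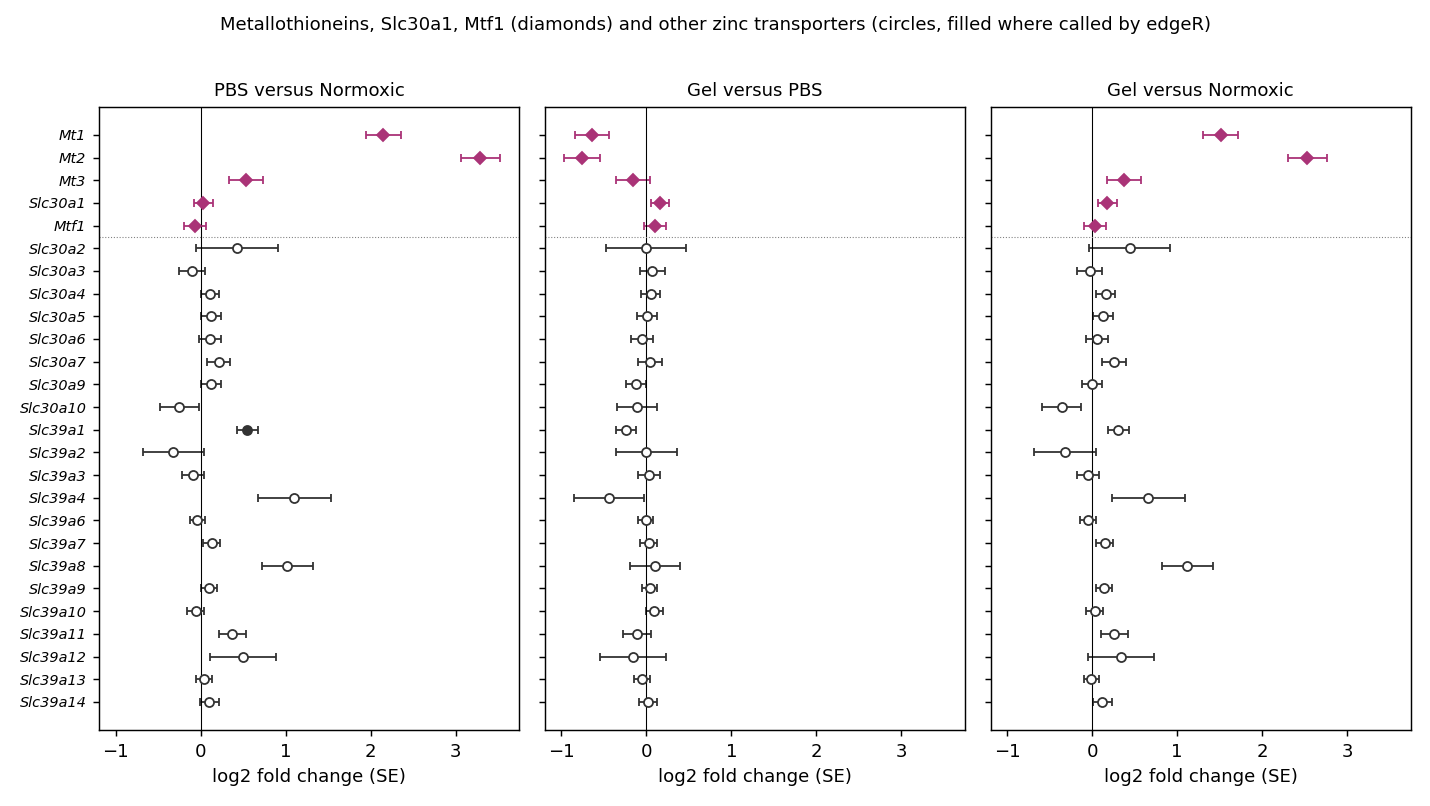
log2 fold change with SE (x axis) of Mt1, Mt2, Mt3, Slc30a1 and Mtf1 (diamonds, described without a test) and of 21 other zinc transporters (circles, filled where edgeR called the gene) in the 3 comparisons. Mt1 and Mt2 lie at 2.15 and 3.29 in PBS versus Normoxic, where Slc39a1 at 0.55 is the filled circle.

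Of 10 other genes reported to respond to MTF1 or metals, edgeR called Pgf and Csrp1 higher in PBS versus Normoxic, with a list median of 0.28 beside 0.01 for all kept genes. Of all kept genes it called 6.34% there, 4.31% higher and 2.03% lower. An unadjusted edgeR p under 0.05 was found for 4 of the 10 and for 3711 of the 17362 kept genes. Pgf, which encodes placental growth factor, a ligand of VEGF receptor 1, had 0.512, 1.48 and 0.751 CPM in Normoxic 1 to 3, 10.7, 3.54 and 6.05 CPM in PBS 1 to 3, and 2.12, 2.13 and 2.52 CPM in Gel 1 to 3. Its PBS libraries came in the same order as for Mt1 and Mt2, PBS 1 highest and PBS 2 lowest, and all 3 lay above Gel. PBS and Gel did not overlap, in either direction, in 7.89% of all kept genes. An order of 3 libraries is weak evidence of a link, and a shared regulator was not tested. The log2 fold change of Pgf was 2.88 ± 0.45 (SE) in PBS versus Normoxic (edgeR adjusted p = 0.00427) and -1.58 ± 0.42 in Gel versus PBS (edgeR adjusted p = 0.576, 0.0477 by DESeq2). Csrp1, a LIM domain protein of smooth muscle and actin filaments, rose from 36.5 ± 1.50 to 77.7 ± 17.4 CPM (SD, n = 3, edgeR adjusted p = 0.00467). It did not share the order of Pgf, with 84, 58 and 91 CPM in PBS 1 to 3, PBS 3 being the highest.

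In Gel versus Normoxic 1 of those 10 genes was called, the stress gene Ndrg1, at 512 ± 27.2 and 362 ± 31.3 CPM (SD, n = 3, edgeR adjusted p = 0.0456). The list had a median of 0.32 beside 0 for all kept genes, of which 1.41% were called there. The call of Ndrg1 was lost in 9 of the 17 alternatives, among them each that left out a Normoxic or a Gel library (edgeR adjusted p up to 0.257). In Gel versus PBS edgeR called 0 of the 10 (2 at an unadjusted p under 0.05) and 0% of all kept genes (961 of 17362 at an unadjusted p under 0.05). Gclc, the antioxidant enzyme gene, and Slc39a10, which MTF1 is known to repress, were not called in any of the 3 comparisons.

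Copper and iron share carriers and binding proteins with zinc. Of 13 kept copper genes edgeR called Cp higher in PBS versus Normoxic (103 ± 18.4 to 224 ± 38.7 CPM, SD, n = 3, adjusted p = 0.00608). It encodes ceruloplasmin, the copper-bearing oxidase that helps iron leave cells. Of 18 iron genes it called Cp, the transferrin gene Trf (1.91 ± 0.30, SE, log2 fold change) and Lcn2 (2.33 ± 0.36), whose product binds iron-carrying siderophores, and again Trf and Lcn2 in Gel versus Normoxic. The Gel versus Normoxic call of Trf was lost without Normoxic 2, Normoxic 3 or any 1 of the Gel libraries (edgeR adjusted p up to 0.187). Lcn2 went the other way from Mt1 and Mt2 between OIR groups, at 38.8 ± 19.4 CPM in Gel and 15.6 ± 4.94 CPM in PBS (log2 fold change 1.31 ± 0.33, edgeR adjusted p = 0.576, 0.029 by DESeq2). The median of the copper list was 0.29 and that of the iron list 0.12 in PBS versus Normoxic, beside 0.01 for all kept genes. Of all kept genes 6.34% were called there, and 1.41% in Gel versus Normoxic. Some of the copper genes are short, and these medians were not recomputed with the length trend removed or without PBS 3.

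Regulators known to act on Mt1 and Mt2 were read beside them. Of 7 such transcription factors edgeR called Stat3 (1.12 ± 0.20, SE, log2 fold change, adjusted p = 0.00859) and Nfe2l2, the gene of NRF2 (0.73 ± 0.14, adjusted p = 0.011), higher in PBS versus Normoxic, and none in the other comparisons. The glucocorticoid receptor gene Nr3c1 stood at 48.6 ± 4.26, 51.0 ± 5.12 and 56.1 ± 5.40 CPM in Normoxic, PBS and Gel (SD, n = 3). Of 10 glucocorticoid targets Fkbp5, Zbtb16 and Pdk4 rose and Dusp1 fell, both in PBS and in Gel against Normoxic. Of all kept genes 6.34% and 1.41% were called in these 2 comparisons. Pdk4 was low, at 0 to 7 counts in Normoxic, 23 to 29 in PBS and 38 to 55 in Gel libraries. Fkbp5 and Zbtb16 were called in all 17 alternatives, while Pdk4 was not called without Normoxic 3, nor Dusp1 without Normoxic 1 or 2, in either comparison. Dusp1 was also lost without PBS 1 or PBS 2 in PBS versus Normoxic and without Gel 2 in Gel versus Normoxic, where Pdk4 was also lost without Gel 2 or Gel 3 (edgeR adjusted p up to 0.0981 for Dusp1 and 0.0842 for Pdk4). Fkbp5 had means of 70.9 ± 8 CPM in PBS and 73.8 ± 8.39 CPM in Gel (SD, n = 3). Of 10 kept STAT3 pathway genes 5 rose in PBS versus Normoxic (Cebpd, Osmr, Bcl3, Socs3 and Stat3) and 2 in Gel versus Normoxic (Cebpd, Osmr). Cebpd, a transcription factor gene induced by STAT3, had means of 7.29 ± 0.669, 74.9 ± 45.4 and 30.9 ± 2.55 CPM in Normoxic, PBS and Gel. In PBS versus Normoxic edgeR no longer called Stat3 without Normoxic 2 (adjusted p = 0.0506), Nfe2l2 without Normoxic 1 or 2 (up to 0.0586) and Socs3 without any 1 of the Normoxic libraries (up to 0.0756), and limma-voom did not call Bcl3 (0.0822). In Gel versus Normoxic Cebpd and Osmr were lost without any 1 of the Normoxic libraries or Gel 3, and Osmr also without Gel 2 (edgeR adjusted p up to 0.0945 and 0.103). Other genes were called there only in alternatives: Stat3 in 5 (lowest adjusted p = 0.00406, among them DESeq2 and without PBS 1 or PBS 3), Klf9 of the glucocorticoid targets in 4 (lowest 0.000126) and Bcl3 in 2 (lowest 0.0379). In Gel versus PBS DESeq2 called Cebpd (adjusted p = 0.023), and edgeR called Bcl3 without PBS 3 (adjusted p = 0.0426).

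Markers of glia and pigment epithelium, cells known to hold metallothioneins, were read beside the members, and none of the markers measured was at 0 in all libraries. Of all kept genes edgeR called 6.34% in PBS versus Normoxic (4.31% higher, 2.03% lower) and 1.41% in Gel versus Normoxic. Of 10 Müller glia markers Aqp4 and Kcnj10 fell in PBS versus Normoxic and none rose (Kcnj10, at adjusted p = 0.0473 in edgeR, was lost in 12 of the 17 alternatives), and the list's summed CPM ran from 5960 to 6500 in Normoxic, 5400 to 7380 in PBS and 5740 to 7530 in Gel. Of 7 retinal astrocyte markers 4 rose and 1 fell in PBS versus Normoxic and 2 rose in Gel versus Normoxic. The marker that fell was Aqp4, which is on the Müller glia list as well, so it is counted in both. The astrocyte sums were 159 to 191, 374 to 546 and 224 to 283 CPM in Normoxic, PBS and Gel. Gfap made up 265 ± 88.9 CPM (SD, n = 3) of the sum in PBS. Of 8 pigment epithelium markers 0 were called in any comparison (2 in PBS versus Normoxic and 5 in Gel versus Normoxic at an unadjusted p under 0.05), and their sums were 25.1 to 97.8, 59.1 to 209 and 146 to 234 CPM. Of the 17362 kept genes, 3711 and 2298 had an unadjusted edgeR p under 0.05 in those 2 comparisons. The pigment epithelium sums of PBS and Gel overlapped. In bulk retina, more cells of a type and more RNA per cell cannot be told apart.

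Other marker lists were counted in the same way, beside the 6.34% of all kept genes called in PBS versus Normoxic and 1.41% in Gel versus Normoxic. In PBS versus Normoxic 6 of 10 microglia and macrophage markers rose (sums of 46.5 to 53.9 CPM in Normoxic, 139 to 207 in PBS and 101 to 135 in Gel), 4 of 8 endothelial markers rose and 1 fell (267 to 317, 254 to 325 and 308 to 328), and 4 of 8 pericyte and smooth muscle markers rose (128 to 152, 290 to 430 and 205 to 270). Of 8 rod markers 0 were called in PBS versus Normoxic and Nr2e3 rose in Gel versus Normoxic (51500 to 52600, 48400 to 65700 and 47000 to 59000), and in PBS versus Normoxic 1 of 8 cone markers rose (1350 to 1620, 1770 to 2240 and 1560 to 1830), of 3 kept lens markers 1 fell (4.30 to 31.6, 1.21 to 3.66 and 2.16 to 6.30 over 8 genes), and of 5 kept red blood cell markers 1 rose (46.1 to 50.6, 46.6 to 198 and 31.2 to 46.1). The 4 neutrophil genes found were near 0, at sums of at most 0.478 CPM. The part of any cell type in the levels of Mt1 and Mt2 was not tested.

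Neighbouring transcripts can add reads, as no source used here gives the strand of the libraries. In GENCODE release M21, 1700034H15Rik overlaps Slc30a1 and 1110065P20Rik overlaps Mtf1 on the other strand. They reached at most 6.01 and 35.8 CPM. Gm45774 overlaps Mt2 on the other strand, but the count table has no row under that name, so its level is not known. No gene overlaps Mt1 or Mt3.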

How the data were processed

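RNA of mouse retina was sequenced in 9 libraries, 3 per group. Each gene has a whole-number count per library in the deposited table. The submitters' processing notes name Bowtie2, RSEM 1.3.1, DESeq2 1.4.5 and build GRCm39, with no role for each, so it is open whether rounding of RSEM estimates gave these counts. The FPKM were made by the authors, and equal the count divided by library total and 1 length per gene, within a relative spread of 9.6e-10.

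Counts were filtered with filterByExpr (minimum count 10, 65.1% of genes kept), scaled by TMM and tested with the quasi-likelihood F test of edgeR 4.0.16 in R 4.3.3 on all 9 libraries, with group alone in the model and Benjamini-Hochberg adjustment over all kept genes. A gene is called at an adjusted p under 0.05. SE is the log2 fold change divided by the root of F. log2 CPM use a prior count of 2. The fit was checked on simulated data. The length trend was removed as a loess of each library's deviation on log2 gene length. DESeq2 1.42.0 and limma-voom (limma 3.58.1) were alternatives.

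The 5 genes and all lists were chosen with earlier results of these data known. The rule for other names was: up to 4 genes per metal list with the smallest p in each comparison, all called genes where 5 or fewer were called, and the 5 genes most like each member. Those printed were picked from these after their values were seen, and Gclc, Slc39a10, Nr3c1 and the exporters given by level were named for their role or rank.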

Additional observations from a re-analysis of the deposited data

How the results depend on the processing

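The signs of the differences of Mt1 and Mt2 from Normoxic, and of Gel from PBS, were the same in all 17 alternatives: for Mt2 from 3.04 to 3.51 in PBS versus Normoxic, from 2.39 to 2.64 in Gel versus Normoxic and from -0.99 to -0.56 in Gel versus PBS, and for Mt1 from 1.94 to 2.34, 1.39 to 1.65 and -0.82 to -0.42. Mt3 in Gel versus PBS ran from -0.31 to 0.13. Slc30a1 and Mtf1 stayed between -0.14 and 0.26 in every comparison. With shares of summed CPM, Mt2 made up 17.5%, 36.6% and 33.9% in Normoxic, PBS and Gel. Mt1 made up 57.4%, 55.2% and 55.2%, the largest share in each group. The number of genes called in PBS versus Normoxic, 1101, was 1936 with DESeq2 and 455 to 1184 when 1 library was left out. In Gel versus PBS it was 24 with no filter on low counts, 3 with the length trend removed, 62 with DESeq2 and 0 to 12 with 1 library left out. In Gel versus Normoxic, 245 became 389 with no filter, 419 with the length trend removed, 643 with only the 2 groups fitted, 845 with DESeq2 and 47 (without Normoxic 2) to 735 (without PBS 3). Zinc transporters called in PBS versus Normoxic numbered 2 with no filter, with the length trend removed and with DESeq2, and 0 to 1 with 1 library left out. In Gel versus Normoxic they numbered 1 with only the 2 groups fitted and with DESeq2, and 0 to 1 with 1 library left out. The cause of these shifts was not tested. With a replicate block 1050, 0 and 227 genes were called in the 3 comparisons. The replicate numbers are not said to pair libraries across groups. Of 9 same-numbered pairs, 2 had a correlation of deviations over 0.1 (range -0.21 to 0.362). These were PBS 3 with Gel 3 (0.362) and PBS 1 with Gel 1 (0.326), while PBS 2 with Gel 1, of different numbers, had 0.306. With so few libraries, which also differ in length trend, these values cannot settle whether libraries were paired. No sample has fewer than 378 counts for any of the 5 genes, so depth limits low genes such as Slc39a4 more than these.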
